A study of Caenorhabditis elegans with 32 samples.

Results

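Double-stranded RNA (dsRNA) that enters a Caenorhabditis elegans cell is cut into small interfering RNAs (siRNAs) that silence matching transcripts, the process called RNA interference (RNAi). The 8 genes described here act in its first steps: sid-1, sid-2 and sid-5 in the uptake and movement of dsRNA, rde-4 and dcr-1 in cutting it, rde-1 in loading the first siRNAs, and rde-10 and rde-11 in the step that follows. They were chosen by name for these roles; the rule used no measured value, but earlier results of these data were known when it was made. All 8 were found among the 46904 genes of the count table, and all 8 passed the filter on low counts.

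Poly(A) RNA of whole worms was sequenced in 32 libraries that form 16 groups of 2, with 2 genotypes (WT and hrde-1) crossed with 2 treatments (normoxia and hypoxia) in each generation from P0 to F3. hrde-1 encodes a nuclear Argonaute of the germline that carries small RNA silencing across generations; the labels name no allele. Worms at the L4 larval stage were kept at 0.1% oxygen for 16 h at 20 °C and then returned to ambient oxygen, about 20%; the labels do not say whether the F1, F2 and F3 worms labelled hypoxia were themselves exposed. Nor do they say whether the 2 libraries of a group came from separate populations, so p-values measure the spread between these libraries, which may be technical. The hrde-1 transcript was present in the mutants, at 344 to 612 CPM (read counts after scaling for library size) in normoxia. WT normoxia libraries of P0, F1 and F3 had 219 to 585 CPM. F2 WT normoxia values, derived as described below, were 750 and 735 CPM, above every mutant library. In F2 normoxia the log2 fold change of hrde-1 against WT was -0.70 ± 0.18 (edgeR adjusted p = 0.026). In hypoxia the transcript was at 420.4 to 565 CPM against 685 to 863 in WT, ranges that did not overlap. The mean log2 fold change there was -0.55 ± 0.09 (edgeR adjusted p = 0.00015). A transcript at these levels in every mutant library is no check of the genotype.

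As background, SID-1 is a membrane channel through which dsRNA passes into cells, and worms without it silence only where the dsRNA is made. SID-2 is a receptor on the lumen side of the intestine that takes up dsRNA from food, and SID-5 is an endosomal protein that helps silencing signals leave cells. RDE-4 binds long dsRNA and hands it to DCR-1, the Dicer enzyme, which also cuts microRNA precursors. The primary siRNAs are loaded into the Argonaute RDE-1, and RDE-10 and RDE-11 form a complex that acts after RDE-1, on the targeted mRNA, so that RNA-dependent RNA polymerases can make the far more abundant secondary siRNAs. HRDE-1 works with such secondary siRNAs and not with the primary ones.

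In the WBcel235 assembly sid-1 lies on chromosome V at 5119970-5126916 and rde-1 on chromosome V at 9987916-9991642. On chromosome III lie sid-2 at 13679445-13682450, rde-4 at 10217302-10218646 and dcr-1 at 8071967-8080281. sid-5 lies on chromosome X at 6904721-6905849, rde-10 on chromosome I at 3547071-3552005 and rde-11 on chromosome IV at 13105200-13106927. All 8 are annotated as protein-coding. sid-2 lies inside dyf-2 on the opposite strand, where exons of the 2 genes share 27 bases, and rde-10 shares 57 bases of exon with Y47G6A.21 on the opposite strand. Whether counting used strand is not given in the sources used here, so reads in those stretches could belong to either gene.

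Levels are in CPM after TMM scaling, and comparisons are log2 fold changes with their standard errors from edgeR's quasi-likelihood test. A gene is said to have risen or fallen where its Benjamini-Hochberg adjusted p over all tested genes was under 0.05. The libraries held 9722580 to 16555982 estimated counts, of which a member gene took from 42 (sid-5) to 2986 (dcr-1). Both F2 WT normoxia columns were found to be means of 3 libraries, 2 of them the WT normoxia libraries of F1 and F3 with the same replicate number. The tests therefore used the other 30 libraries, and the F2 WT normoxia values below are the remainder left after subtracting those 2 libraries, which is inferred, not stated, to be the F2 library.

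The P0 WT normoxia libraries stood apart from the rest. Their 10 germline markers summed to 1235 and 1729 CPM, against 2355 to 4768 in the other 28 libraries of the tests, and their 8 oocyte and eggshell markers to 2945 and 4491, against 7204 to 16565. Their 10 neuronal markers summed to 617 and 636 CPM, against 289 to 615 elsewhere, and no germline, oocyte or neuronal marker was at 0 in any of the 30 libraries. The F3 hrde-1 normoxia libraries differed most from each other, with a correlation of log2 CPM across genes of 0.92 and hypodermis markers that summed to 118 and 1153 CPM. P0 and F2 hrde-1 normoxia followed, with correlations of 0.953 each, against 0.974 to 0.987 in the remaining groups. Their oocyte and eggshell markers summed to 12962 and 7204 CPM in P0 and to 9122 and 13680 CPM in F2. In whole worms fewer cells of a type and less RNA per cell cannot be told apart, and the part of tissue makeup in the results below was not tested.

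Per kilobase of exon, which allows genes to be compared, rde-4 had the highest level of the 8 genes in each of the 30 libraries, with a median of 74.7 CPM per kilobase and a range of 42.9 to 91.2. rde-11 followed with a median of 31.3, dcr-1 with 29.4, rde-1 with 27.6, sid-1 with 25.7 and rde-10 with 20.7 CPM per kilobase. rde-11 and dcr-1 were not separated, with rde-11 the higher in 17 of 30 libraries. Other neighbours kept their order in more libraries: rde-1 was above dcr-1 in 6 of 30 and sid-1 above rde-1 in 10. sid-1 was above rde-10 in 23 of 30 libraries, and sid-2 above rde-10 in 1. The 2 genes with the lowest medians were sid-2, at 11.8 CPM per kilobase, and sid-5, at 11.7, and each was the higher of the pair in 15 libraries. rde-1 was above rde-10 in all 30 libraries.

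**Figure D1:**
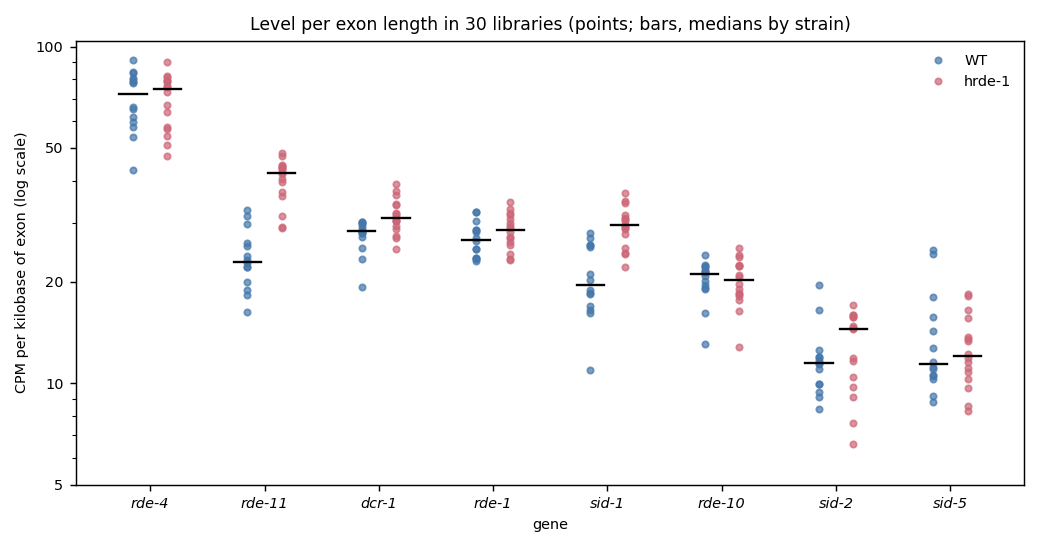
Level of each gene in CPM per kilobase of exon (log scale) in the 30 libraries of the tests, WT in blue and hrde-1 in red, with bars at the median of each strain. rde-4 lay above the other 7 genes in every library, and rde-11 and sid-1 were the genes whose strains lay furthest apart.

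The genes differed in how far their levels moved over the 15 groups. The highest group mean was 2.60 times the lowest for sid-5, 2.57 times for rde-11, 2.36 times for sid-1 and 2.30 times for sid-2. It was 1.81 times for rde-4, 1.76 times for dcr-1, 1.63 times for rde-10 and 1.37 times for rde-1. The standard deviation of log2 CPM over the group means ran from 0.14 for rde-1 to 0.45 for rde-11, against a median of 0.52 over the 15536 genes tested. The Argonaute rde-1 was at percentile 2.74 of these genes and rde-11 at percentile 43.9. The lowest group was P0 WT normoxia for sid-1, rde-1, rde-4, rde-10 and dcr-1, and for sid-5 that group was the highest.

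**Figure D2:**
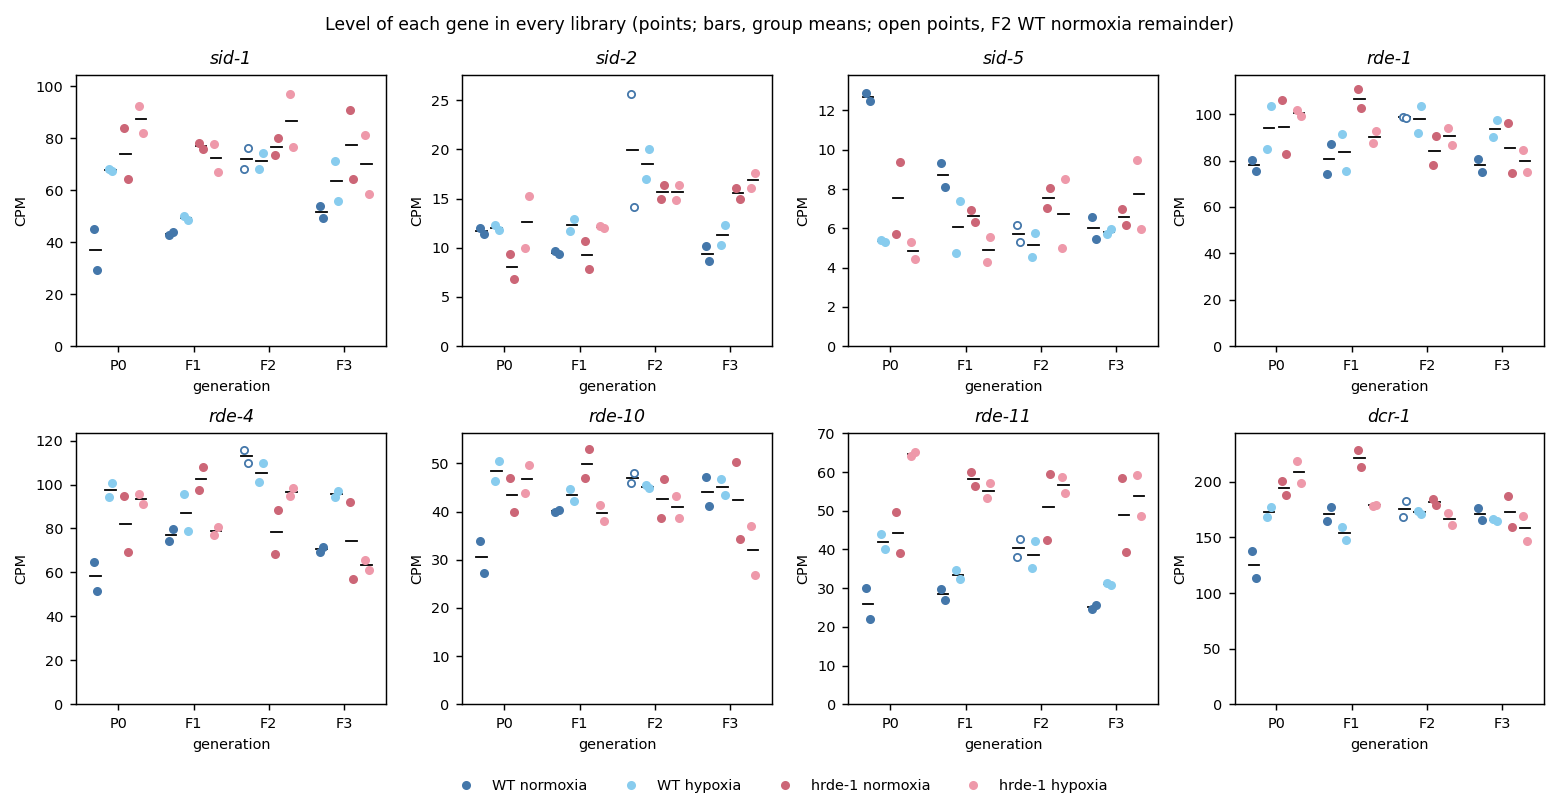
Level of each gene in CPM in every library by generation, strain and treatment, with bars at group means and open points for the F2 WT normoxia remainder. For rde-11 the mean of each hrde-1 group lay above that of the WT group of the same generation and treatment, with overlapping libraries in F2 normoxia, and for sid-5 the 2 P0 WT normoxia libraries, at 12.9 and 12.5 CPM, were the highest.

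The first comparison asks how worms of the exposed generation differed from unexposed worms. In P0 WT worms 6 of the 8 genes differed between hypoxia and normoxia, 5 higher and 1 lower in hypoxia. Of all 15536 genes 41.8% did, so a share of 6 in 8 stands beside a high background. The median log2 fold change was 0.56 over the 8 genes and -0.14 over all genes tested.

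sid-1, the dsRNA channel, was at 45.0 and 29.1 CPM in P0 WT normoxia and at 68.2 and 67.3 CPM in P0 WT hypoxia. The groups did not overlap, and sid-1 rose by 0.87 ± 0.21 on the log2 scale (adjusted p = 0.0026). sid-5 went the other way, from 12.9 and 12.5 CPM in normoxia to 5.4 and 5.3 CPM in hypoxia, and fell by 1.24 ± 0.31 on the log2 scale (adjusted p = 0.0037). sid-2, the intestinal receptor, was at 12.03 and 11.4 CPM in normoxia and 12.3 and 11.8 CPM in hypoxia, groups that overlapped, with a log2 fold change of 0.04 ± 0.22 (adjusted p = 0.89). The 3 uptake genes thus gave 1 rise, 1 fall and 1 difference whose 95% interval, -0.38 to 0.47, holds 0.

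The dicing genes rose together. rde-4, the dsRNA-binding partner of Dicer, was at 65.0 and 51.7 CPM in normoxia and 94.1 and 100.6 CPM in hypoxia, a log2 fold change of 0.74 ± 0.18 (adjusted p = 0.0038). dcr-1 was at 137.6 and 113.5 CPM in normoxia and 168.3 and 177.3 CPM in hypoxia, a log2 fold change of 0.46 ± 0.11 (adjusted p = 0.0032). The Argonaute rde-1 did not pass the test, at 80.4 and 75.5 CPM against 84.8 and 103.7 CPM (0.27 ± 0.15, adjusted p = 0.15), although its groups did not overlap.

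Both genes of the complex that acts after RDE-1 rose as well. rde-10 was at 33.8 and 27.3 CPM in normoxia and 46.3 and 50.4 CPM in hypoxia, a log2 fold change of 0.66 ± 0.18 (adjusted p = 0.0064). rde-11 was at 29.95 and 21.98 CPM in normoxia and 44.03 and 40.05 CPM in hypoxia, a log2 fold change of 0.70 ± 0.19 (adjusted p = 0.0077). In the same comparison 9 of 10 germline and 8 of 8 oocyte markers rose, with median log2 fold changes of 1.24 and 1.67, 9 of 10 neuronal markers fell, with a median of -1.44, and 5 of 8 sperm markers rose. Germline sums were 3756 and 3909 CPM in P0 WT hypoxia against 1235 and 1729 in P0 WT normoxia, and the part of this in the 5 rises and the fall of sid-5 was not tested. Without the second P0 WT normoxia library only sid-5 still passed (adjusted p = 0.024); the 5 others had log2 fold changes of 0.36 to 0.62, all positive, and adjusted p of 0.067 to 0.12.

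Later generations of WT worms gave no such calls. In F1, where 13.8% of all genes differed, 0 of the 8 genes passed edgeR's test, 0 had an unadjusted p under 0.05 and DESeq2 called 0. In F3, where 6.6% of all genes differed, 0 passed, 1 had an unadjusted p under 0.05 and DESeq2 called 0; that gene was rde-4, at 69.5 and 71.7 CPM in normoxia and 94.2 and 97.1 CPM in hypoxia (0.44 ± 0.18, adjusted p = 0.14). sid-1 and rde-11, which rose in P0, had log2 fold changes of 0.19 ± 0.21 and 0.23 ± 0.19 in F1 and of 0.31 ± 0.20 and 0.30 ± 0.19 in F3, which did not pass the test. sid-5 had a log2 fold change of -0.52 ± 0.31 in F1 and -0.04 ± 0.31 in F3. Of all 15536 genes, 4250 in F1 and 4133 in F3 had an unadjusted p under 0.05.

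In F2, with the remainder as WT normoxia, 0% of all genes and 0 of the 8 differed between WT hypoxia and normoxia; 0 of the 8 had an unadjusted p under 0.05, as did 316 of all genes, and DESeq2 called 0 of the 8. Log2 fold changes of the 8 genes lay between -0.15 and -0.01, and the libraries of sid-1 and rde-11 overlapped. With the columns as deposited 1239 genes differed, and 0 of the 8.

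In hrde-1 worms no member passed in any generation, while among all genes 5.84% did for P0, 8.36% for F1, 0% for F2 and 0.0129% for F3. In P0 2 of the 8 had an unadjusted p under 0.05: sid-2, at 9.3 and 6.8 CPM in normoxia and 10.003 and 15.2 CPM in hypoxia (0.64 ± 0.22, adjusted p = 0.087), and rde-11, at 49.8 and 39.0 CPM in normoxia and 64.0 and 65.3 CPM in hypoxia (0.54 ± 0.19, adjusted p = 0.094). DESeq2 called neither. Without the first P0 hrde-1 normoxia library, which leaves 1 library in that group, the log2 fold changes of sid-2 and rde-11 were 0.98 and 0.83. In F1 2 had an unadjusted p under 0.05, of which DESeq2 called dcr-1; it was at 229.1 and 213.8 CPM in normoxia and 178.1 and 179.6 CPM in hypoxia (-0.31 ± 0.11, adjusted p = 0.096 in edgeR). In F2 0 and in F3 1 had an unadjusted p under 0.05, and DESeq2 called 0 in both. Of all genes in F2, 784 had an unadjusted p under 0.05 and DESeq2 called 2.

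Passing in WT and not in hrde-1 is not a difference between the strains, so the difference was tested as an interaction. In P0, where 0.348% of all genes passed, 0 of the 8 genes did and DESeq2 called 0. An unadjusted p under 0.05 was found for 4 of the 8 and for 2717 of all 15536 genes. The interaction for sid-1 was -0.63 ± 0.29 (adjusted p = 0.26), the hypoxia effect being 0.87 in WT and 0.24 in hrde-1. For rde-10 it was -0.56 ± 0.25, for rde-4 -0.55 ± 0.26 and for dcr-1 -0.36 ± 0.16, with adjusted p of 0.25 to 0.28, and for rde-11 it was -0.15 ± 0.27 (adjusted p = 0.82). The background was 12.7% of all genes in F1, 0% for F2 and 0.657% for F3; in each of them 0 of the 8 passed, 1, 0 and 1 had an unadjusted p under 0.05, and DESeq2 called 0 in each. Of all genes, 5199 in F1, 367 in F2 and 3246 in F3 had an unadjusted p under 0.05, and DESeq2 called 1 in F2. Among the 8, the gene under that level in F1 and in F3 was rde-4, with interactions of -0.56 ± 0.26 in F1 and -0.67 ± 0.26 in F3. Without the second F3 hrde-1 normoxia library, which leaves 1 library in that group with its spread taken from the other groups, the interactions of rde-4 and rde-10 were -0.98 ± 0.23 and -0.69 ± 0.24 (adjusted p = 0.0057 and 0.040). In that fit hypoxia was lower than normoxia in F3 hrde-1 by 0.54 ± 0.18 and 0.65 ± 0.19 (adjusted p = 0.043 and 0.025). Of the interactions called over all genes in F1, 68.9% were above 0, and 56.9% with DESeq2's size factors. Among the markers the median interaction in P0 was -0.81 for the 10 germline and -1.22 for the 8 oocyte and eggshell genes. In F1 these medians were -0.46 and -1.02, in F2 0.08 and -0.12, and in F3 -0.49 and -0.75. The part of tissue makeup in the interactions of the 8 genes was not tested.

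**Figure D3:**
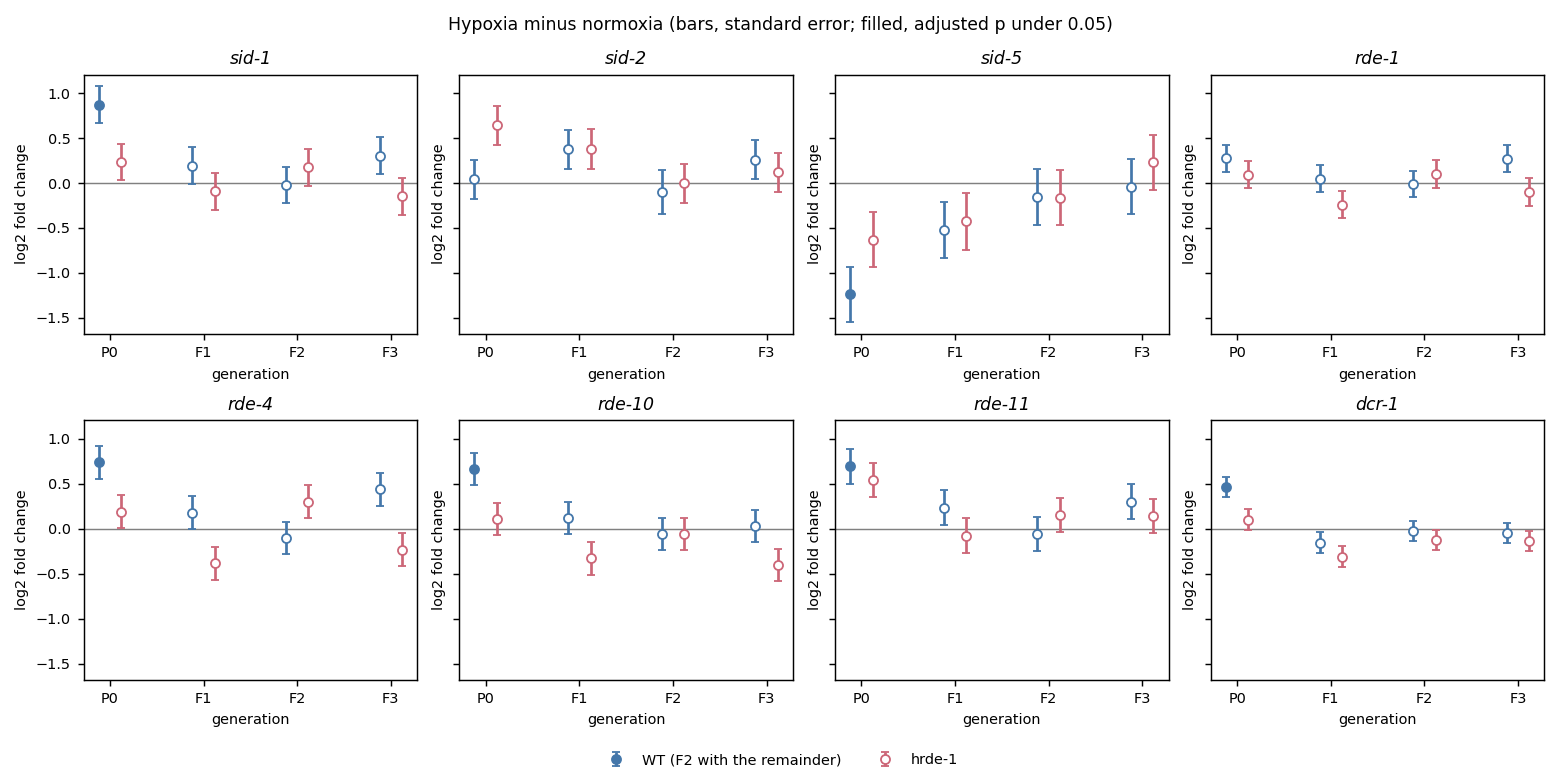
Log2 fold change of hypoxia against normoxia for each gene by generation, in WT (blue) and hrde-1 (red), with bars for the standard error and filled points where the adjusted p was under 0.05; F2 WT uses the remainder. The 6 filled points are all in P0 WT, 5 above 0 and sid-5 at -1.24.

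The second comparison asks how hrde-1 mutants differed from WT. In normoxia, as a mean over P0, F1 and F3, 5 of the 8 genes were higher in hrde-1 and none was lower, where 42.4% of all genes differed. The median log2 fold change was 0.30 over the 8 genes and -0.12 over all genes. In hypoxia, as a mean over the 4 generations, 2 of the 8 were higher, where 25.9% of all genes differed, with medians of 0.09 over the 8 genes and 0.05 over all genes. In that hypoxia mean 6 of 8 sperm markers (median log2 fold change 0.98), 3 of 8 muscle and 2 of 10 neuronal markers were higher in hrde-1 and none of these lower, 2 of 7 intestine markers were higher and 1 lower, and 1 of 10 germline markers was lower. Their part in the 2 rises was not tested.

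rde-11 stood out in both treatments. In normoxia it was at 29.95 and 21.98 CPM in P0, 29.9 and 26.99 in F1 and 24.7 and 25.6 in F3 of WT. In hrde-1 normoxia it was at 49.8 and 39.0 CPM in P0, 60.0 and 56.4 in F1, 42.3 and 59.6 in F2 and 58.3 and 39.2 in F3. With F2 WT normoxia left out, all 6 WT libraries lay at or below 29.95 CPM and all 8 hrde-1 libraries at or above 39.0. The F2 WT normoxia remainder, at 38.1 and 42.6 CPM, overlapped the hrde-1 range.

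Under hypoxia WT worms had 44.03 and 40.05 CPM of rde-11 in P0, 34.6 and 32.3 in F1, 35.1 and 42.3 in F2 and 31.3 and 30.8 in F3. hrde-1 worms had 64.0 and 65.3 CPM in P0, 53.4 and 57.1 in F1, 58.7 and 54.5 in F2 and 59.2 and 48.5 in F3. Here the strains did not overlap, with WT at most at 44.03 CPM and hrde-1 at least at 48.5. The 95% intervals of the single generations in hypoxia, not adjusted for the number of genes, lay above 0, with the lowest bound at 0.17 in F2.

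rde-11 rose by 0.92 ± 0.11 on the log2 scale in normoxia (adjusted p = 2.9e-06) and by 0.67 ± 0.10 in hypoxia (adjusted p = 3.8e-05), as means over generations. By generation it rose in normoxia by 0.77 ± 0.19 in P0, 1.03 ± 0.20 in F1 and 0.95 ± 0.19 in F3, and in hypoxia by 0.80 ± 0.19 in F3. The hypoxia differences of 0.62 ± 0.19 in P0, 0.72 ± 0.19 in F1 and 0.55 ± 0.19 in F2 did not pass alone, with adjusted p of 0.12, 0.061 and 0.098. The P0 normoxia call was lost without the second WT or the first hrde-1 library, and the F3 hypoxia call when any 1 of its 4 libraries was left out. Germline sums in hypoxia were 3756 to 4300 CPM in WT and 3084 to 4356 in hrde-1.

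The F2 WT normoxia remainder was at 38.1 and 42.6 CPM of rde-11, above the other 6 WT normoxia libraries and overlapping hrde-1 F2 normoxia at 42.3 and 59.6. The F2 difference was 0.34 ± 0.19 with the remainder (adjusted p = 0.31), where 4.51% of all genes differed. With the columns as deposited it was 0.74 (adjusted p = 0.021). With the remainder included as F2, the normoxia mean over 4 generations was 0.77 ± 0.10 (adjusted p = 2.4e-06).

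sid-1 came next. In normoxia its WT libraries were at 45.0 and 29.1 CPM in P0, 42.9 and 43.8 in F1 and 53.8 and 49.3 in F3. hrde-1 libraries were at 83.8 and 64.5 CPM in P0, 78.4 and 76.03 in F1, 73.4 and 80.2 in F2 and 90.9 and 64.3 in F3, all above the highest of these WT libraries. The F2 WT normoxia remainder, at 68.1 and 76.3 CPM, lay within the hrde-1 range.

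sid-1 was higher in hrde-1 by 0.81 ± 0.12 on the log2 scale in normoxia (adjusted p = 2.7e-05), and rose alone in P0 (95% interval 0.60 to 1.40) and in F1 (0.83 ± 0.21); the F3 difference of 0.59 ± 0.20 did not pass (adjusted p = 0.078). The P0 call was lost without the second WT library. With the remainder the F2 difference was 0.09 ± 0.20 (adjusted p = 0.83), and the mean over 4 generations was 0.63 ± 0.10 (adjusted p = 6.4e-05). In hypoxia the strains overlapped, with 48.7 to 74.2 CPM in WT and 58.7 to 97.1 CPM in hrde-1. The mean difference there was 0.33 ± 0.10 (adjusted p = 0.020), with no generation passing alone. That call was lost without the second F3 WT library, without the first hrde-1 library of any 1 generation, and without F1 or F2.

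As means over generations within a treatment, the differences of the other 6 genes were smaller than those of rde-11 and sid-1. dcr-1 was higher in hrde-1 normoxia by 0.63 ± 0.11 in P0, at 200.6 and 188.6 CPM against 137.6 and 113.5, and by 0.37 ± 0.11 in F1, at 229.1 and 213.8 CPM against 164.5 and 177.5. In F3 its libraries overlapped (0.02 ± 0.11), and the mean of 0.34 ± 0.06 (adjusted p = 0.00034) was 0.20 ± 0.08 without P0 (adjusted p = 0.057). The F1 call of dcr-1 was lost without the first library of either strain. rde-10 rose in P0 by 0.51 ± 0.18 (adjusted p = 0.046) and rde-1 in F1 by 0.40 ± 0.15 (adjusted p = 0.044), each without the other generations passing. The rde-10 call was lost without the second WT or the first hrde-1 library, the rde-1 call without the first WT or either hrde-1 library, and both with no filter on low counts.

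In the normoxia mean rde-4 was higher by 0.33 ± 0.11 (adjusted p = 0.017) and rde-1 by 0.27 ± 0.09 (adjusted p = 0.016), and both calls were lost without P0, without F1, without the first F3 hrde-1 normoxia library, or with the remainder included as F2 (adjusted p = 0.34 and 0.12). The rde-4 call was also lost with the groups fitted alone. rde-4 fell in F3 hypoxia, from 94.2 and 97.1 CPM in WT to 65.5 and 61.2 CPM in hrde-1, by 0.59 ± 0.18 (adjusted p = 0.044), a call that was lost when any 1 of the 4 libraries was left out. Germline sums there were 3924 and 3954 CPM in WT and 3084 and 3683 CPM in hrde-1, and their part in it was not tested. sid-2 rose in F3 normoxia, from 10.2 and 8.6 CPM in WT to 16.1 and 14.96 CPM in hrde-1, by 0.72 ± 0.22 (adjusted p = 0.041), and lost its call without either WT library or the first hrde-1 library. The sid-2 call was also lost with no filter on low counts, and in the fit that includes the remainder. sid-5 passed in no comparison of the strains, with log2 fold changes from -0.75 ± 0.30 in P0 normoxia to 0.41 ± 0.31 in F3 hypoxia.

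By generation, 4 of the 8 genes were higher in hrde-1 in P0 normoxia, where 22.6% of all genes differed, 4 in F1 normoxia, where 34.5% did, and 2 in F3 normoxia, where 8.9% did. With each pair of groups fitted alone the 4 calls of P0 and the 2 of F3 were lost. In F2 normoxia with the remainder 0 of the 8 differed and DESeq2 called 0. Of the 8, 1 (rde-4, -0.52 ± 0.18) had an unadjusted p under 0.05, as did 3398 of all 15545 genes. Without the second F2 hrde-1 normoxia library, which leaves 1 library in that group, the rde-4 difference was -0.72. In hypoxia 0 differed in P0, F1 and F2, where 2.14%, 1.98% and 6.43% of all genes did. An unadjusted p under 0.05 was found for 2, 2 and 1 of the 8, and for 1892, 1659 and 3183 of all 15536 genes. DESeq2 called 0, 1 (rde-11) and 0 of the 8. In F3 hypoxia 1 gene was higher and 1 lower, where 10.8% of all genes differed. In the normoxia mean 7 of 10 germline and 8 of 8 oocyte markers were higher in hrde-1 and 1 germline marker was lower. Of neuronal markers 6 of 10 were lower and 1 higher (median log2 fold change -0.49), of hypodermis markers 3 of 8 were lower and 1 higher, of intestine markers 3 of 7 were lower and 1 higher, of muscle markers 2 of 8 were lower and 1 higher, and of sperm markers 2 of 8 were higher. Germline sums were 1235 to 3096 CPM in WT and 2355 to 4768 CPM in hrde-1. The part of this in the 5 normoxia rises was not tested.

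**Figure D4:**
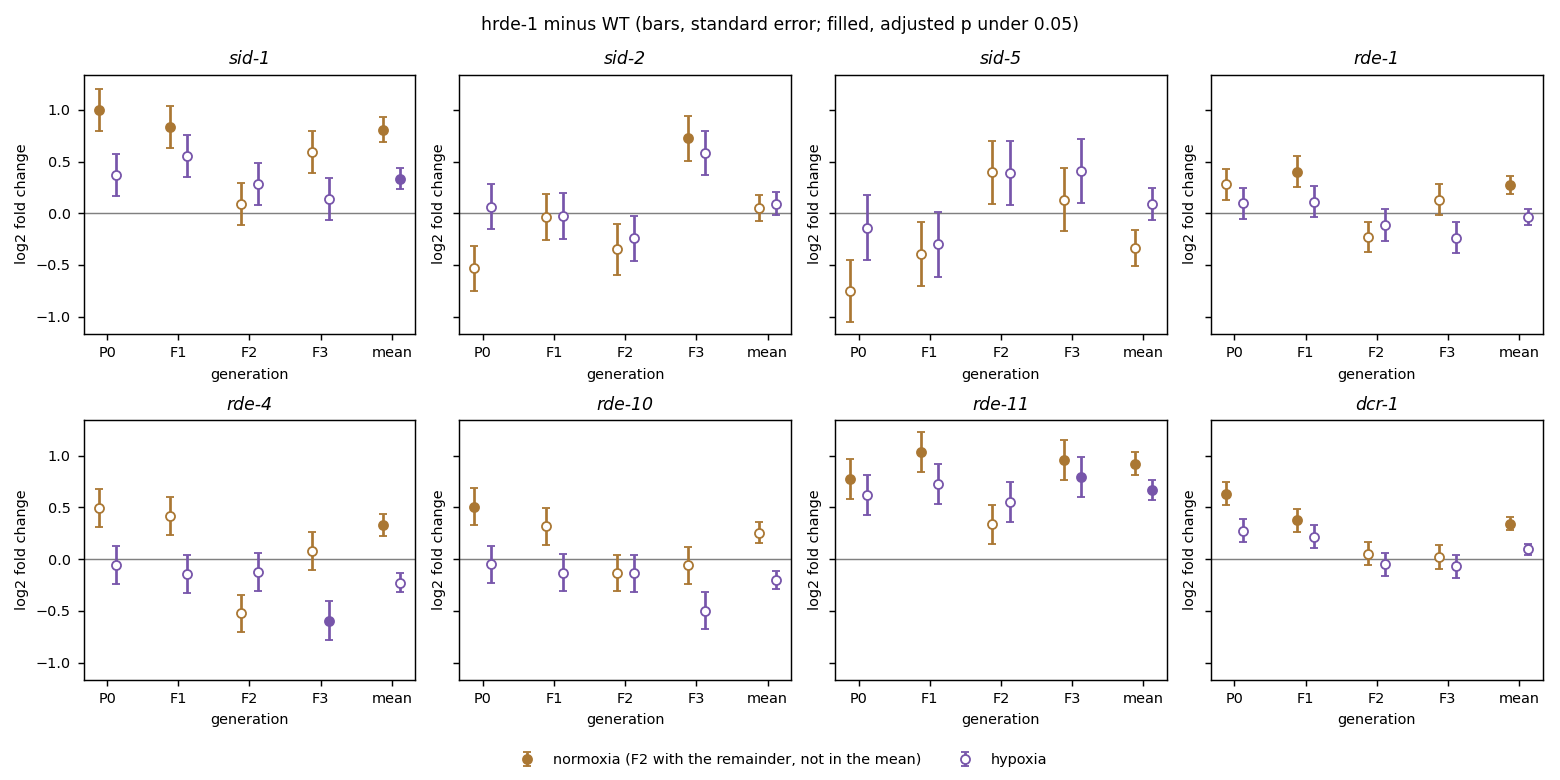
Log2 fold change of hrde-1 against WT for each gene by generation and as a mean over generations, in normoxia (brown) and hypoxia (purple), with bars for the standard error and filled points where the adjusted p was under 0.05. F2 normoxia uses the remainder and is not in the mean; rde-11 is above 0 in all 10 values, from 0.34 to 1.03.

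RDE-10 and RDE-11 work as a complex, and their transcripts were set side by side in each library, a comparison chosen after the values had been seen and therefore given with no test. Per kilobase of exon, rde-11 over rde-10 ran from 0.81 to 1.48 in the 14 WT libraries, with a median of 1.19, and from 1.51 to 2.81 in the 16 hrde-1 libraries, with a median of 1.99. The ranges did not overlap, and the gap between them was narrow. It was bounded by P0 WT hypoxia, at 1.48 and 1.23, and P0 hrde-1 normoxia, at 1.65 and 1.51. The F2 WT normoxia remainder gave 1.29 and 1.38, within the WT range. The highest ratios, 2.48 and 2.81, were in F3 hrde-1 hypoxia, where rde-10 had 37.1 and 26.8 CPM.

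The third comparison sets P0 against the later generations within a strain and treatment. Generation goes together with harvest, and their effects cannot be told apart here. The muscle markers summed to 2624 to 4257 CPM in the P0 libraries and to 4895 CPM or more in the later ones. In WT normoxia, P0 against F1 and F3, 3 of the 8 genes differed, where 44.4% of all genes did. sid-5 was higher in P0 by 0.81 ± 0.25 (adjusted p = 0.014), with 12.9 and 12.5 CPM against 9.3 and 8.1 in F1 and 6.6 and 5.5 in F3. rde-10 was lower by 0.46 ± 0.16 (adjusted p = 0.022) and dcr-1 by 0.45 ± 0.10 (adjusted p = 0.0012). These 3 calls rest on the libraries with the lowest germline sums, and without the second of them none of the 3 passed. sid-5 also lost its call without the first of them or without the second F1 or F3 library, and rde-10 without the first F3 library. All 10 germline, 8 oocyte and 8 sperm markers and 6 of 8 muscle markers were lower in P0 there, and 6 of 10 neuronal markers were higher.

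In WT hypoxia 0 of the 8 differed between P0 and the later generations, where 9.1% of all genes did. An unadjusted p under 0.05 was found for 0 of the 8 and for 3447 of all 15536 genes, and DESeq2 called 0 of the 8. In hrde-1 normoxia, where 24.4% of all genes differed, sid-2 alone of the 8 differed, at 9.3 and 6.8 CPM in P0 against 10.7 and 7.8 in F1, 14.98 and 16.4 in F2 and 16.1 and 14.96 in F3. It was lower in P0 by 0.70 ± 0.19 (adjusted p = 0.010), with F1 overlapping P0 and F2 and F3 above both, and lost its call without the second P0 library or with the groups fitted alone. In that comparison 9 of 10 neuronal markers were higher in P0, and 5 of 8 sperm and 5 of 8 muscle markers lower. In hrde-1 hypoxia, where 18.4% differed, dcr-1 was higher in P0 by 0.32 ± 0.09 (adjusted p = 0.019), at 218.6 and 199.4 CPM against 146.9 to 179.6 in the 6 later libraries. That call was lost without either P0 library or the second F3 library, and 7 of 8 sperm and 7 of 8 muscle markers were lower in P0 there.

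The members fell into patterns over the 15 groups, given as descriptions, since all points come from the same libraries and share their depth and scaling. sid-1 and rde-11 followed each other most closely (Pearson r of log2 CPM = 0.88), then rde-1 and rde-4 (0.84) and rde-4 and rde-10 (0.83). rde-10 and rde-11, whose proteins form a complex, had an r of 0.21. sid-5 had a negative r with each of the other 7 genes, from -0.70 with rde-10 to -0.16 with sid-2. P0 WT normoxia, the highest group for sid-5 and the lowest for sid-1, rde-1, rde-4, rde-10 and dcr-1, was among the 15 groups. The r between members was not computed without it.

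Against the summed germline markers r was 0.78 for sid-1, 0.78 for rde-4, 0.72 for rde-10, 0.69 for dcr-1, 0.67 for rde-1, 0.64 for rde-11, 0.27 for sid-2 and -0.82 for sid-5. Without P0 WT normoxia, over 14 groups, it was 0.61 for sid-1, 0.71 for rde-4, 0.42 for rde-10, 0.31 for dcr-1, 0.72 for rde-1, 0.58 for rde-11, 0.41 for sid-2 and -0.57 for sid-5. For the oocyte and eggshell markers over these 14 groups r was 0.58 for sid-1, 0.73 for rde-4, 0.66 for rde-10 and 0.58 for dcr-1. It was 0.84 for rde-1, 0.56 for rde-11, 0.11 for sid-2 and -0.57 for sid-5. For the muscle markers over the same groups rde-4, rde-10, dcr-1 and rde-1 had an r of -0.71 to -0.58. There sid-1, rde-11, sid-2 and sid-5 had an r of -0.23 to 0.45. sid-2 went rather with the intestinal markers, with an r of 0.64 over 15 groups and 0.73 over 14. For sid-1 and rde-11 r with these markers was 0.56 and 0.51 over 15 groups and 0.33 and 0.37 over 14. The remaining genes had an r of -0.50 to 0.12 over 15 groups and of -0.53 to -0.18 over 14. elt-2, a transcription factor that defines the intestine, was between 1.3 and 15.4 CPM. Like the other intestine markers, it was detected in all 30 libraries.

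**Figure D5:**
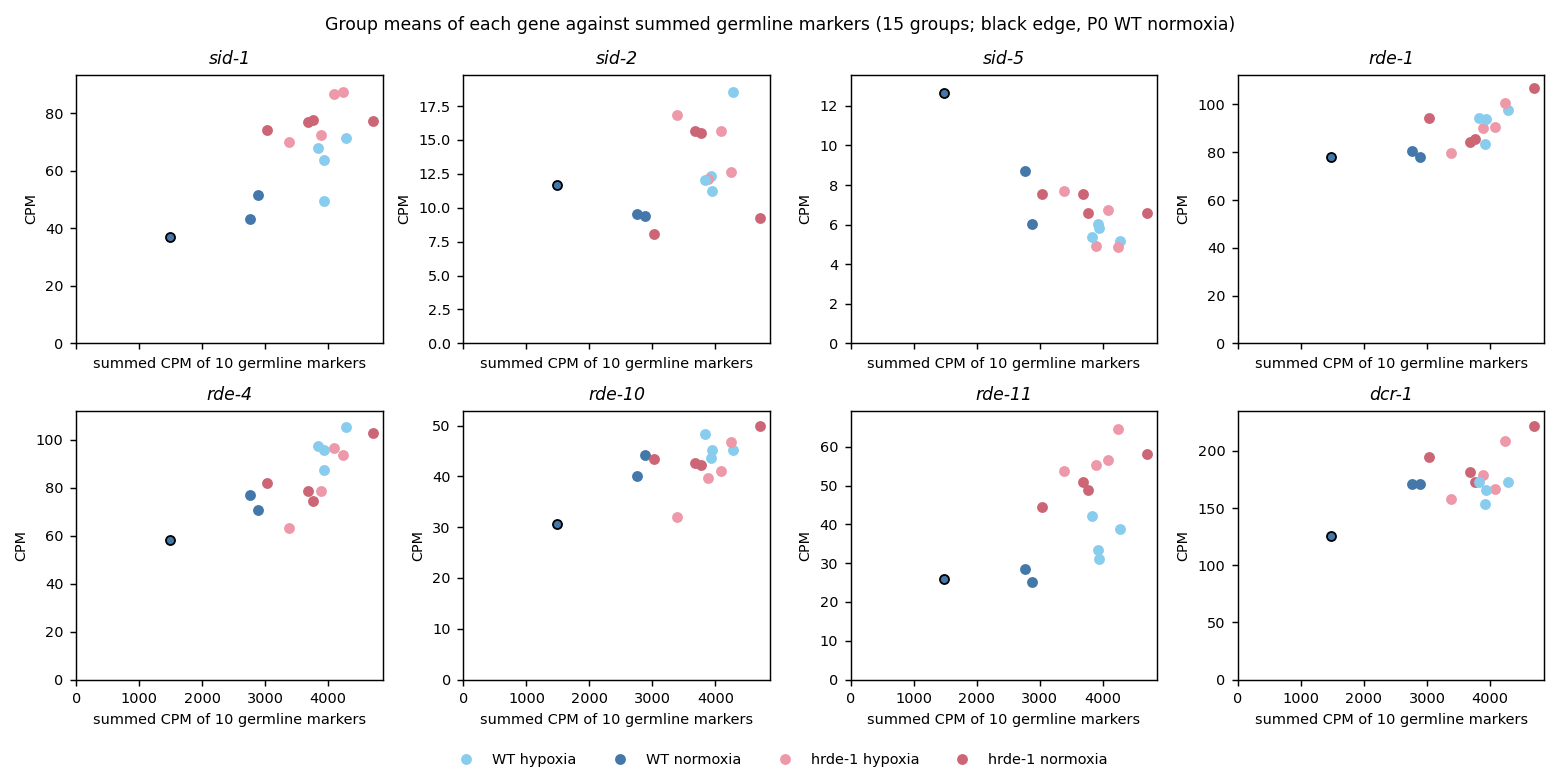
Group mean of each gene in CPM against the summed CPM of the 10 germline markers over the 15 groups, with P0 WT normoxia edged in black. P0 WT normoxia lies furthest left in each panel, and for rde-11 the WT group means run from 25.2 to 42.04 CPM and the hrde-1 group means from 44.4 to 64.7 CPM.

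The genes whose group means were most like each member were named by the highest Pearson r of log2 CPM over the 15 groups. For sid-1 these were ceh-92, ZC317.7 and atln-1 (r of 0.93 each), and for rde-11 R11A8.1 (0.97), Y10G11A.1 (0.95) and F49F1.7 (0.94). For rde-4 they were T07F8.4, hrpf-2 and W04A8.6 (0.96 to 0.97), for rde-10 ZK688.5, gtf-2E1 and pola-1 (0.95 to 0.97), for rde-1 sea-1, F25H2.6 and marc-3 (0.95 to 0.96) and for dcr-1 panl-2, T04C4.1 and xpf-1 (0.94 to 0.95). sid-5 was most like cnc-10, K07F5.16 and gpc-2 (0.90 to 0.92), and sid-2 like C52A10.1 (0.91), R03H10.6 (0.87) and trhr-1 (0.86).

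The neighbours of these genes in the small RNA pathways were counted in a list of 33. In P0 WT hypoxia against normoxia 19 rose and 3 fell, where 41.8% of all genes differed, with a median log2 fold change of 0.49 against -0.14 over all genes. Among those that rose were ppw-1, a secondary Argonaute of the germline (1.37 ± 0.15), rde-12, a helicase of secondary siRNA production (0.81 ± 0.10), and mut-16, the scaffold of mutator foci (1.08 ± 0.16). The 3 that fell were ain-1, a partner of microRNA Argonautes (-1.32 ± 0.27), rsd-3, needed for dsRNA import (-0.54 ± 0.16), and adr-1, an RNA-editing factor (-0.44 ± 0.16). By role, 10 of 14 secondary siRNA genes rose and none fell, 3 of 4 systemic RNAi genes rose and 1 fell, 6 of 11 genes of the Dicer complex, antiviral or ERI pathways rose and 1 fell, and 0 of 4 microRNA partners rose and 1 fell. As above, 9 of 10 germline markers rose in this comparison, and their part in these counts was not tested.

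In hrde-1 against WT, as the normoxia mean, 20 of the 33 were higher and 3 lower, where 42.4% of all genes differed. As the hypoxia mean 1 was higher and 4 lower, a smaller share than the 25.9% of all genes. The 3 lower ones in normoxia were ain-1 (-0.80 ± 0.15), ain-2 (-0.25 ± 0.07) and alg-1 (-0.42 ± 0.12), all genes of the microRNA pathway. The gene higher in hypoxia was eri-6, part of a helicase of the endogenous siRNA pathway, at 1.63 ± 0.10 (adjusted p = 5.8e-11). eri-6 was higher in hrde-1 in all 8 comparisons of single generations, by 0.75 to 1.93. Among the 33 in hypoxia alg-2, an Argonaute of microRNAs (-0.67 ± 0.11), ego-1, an RNA-dependent RNA polymerase of the germline (-0.26 ± 0.08), and pir-1, an RNA phosphatase found with Dicer (-0.28 ± 0.08), were lower. Of the 8 dsRNA genes, rde-11 and sid-1 were higher there.

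In later WT generations 5 of the 33 rose and 3 fell in F1 hypoxia, where 13.8% of all genes differed, and 2 rose and 0 fell in F3, where 6.6% did, a share near that of the list. sago-2, a secondary Argonaute, was the steepest of those named, with 3.57 ± 0.70 in F1 and 2.69 ± 0.62 in F3. In hrde-1 hypoxia 1 rose in P0 (ppw-1, 0.61 ± 0.15), where 5.84% of all genes differed, 2 fell in F1 (mut-2, -0.63 ± 0.18, and pir-1, -0.57 ± 0.17), where 8.36% did, and edgeR called 0 in F2 and F3. In P0 against later generations 1 was higher and 10 lower in WT normoxia, a smaller share than the 44.4% of all genes, with all 10 germline markers lower as well. In hrde-1 hypoxia 11 were higher and 0 lower, where 18.4% of all genes differed, led by mut-2 (0.88 ± 0.14), ppw-1 (0.68 ± 0.12) and mut-7 (0.50 ± 0.12).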

How the data were processed

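Poly(A) RNA of whole worms was measured in 32 libraries. The deposited values are the authors' estimated counts of genes without normalization, as the values show: 97.79% or more of those in each of 30 columns were exactly whole (no tolerance). Per the submitters' processing notes, cutadapt 2.5, Bowtie2, featureCounts, RSEM and edgeR were used; which tool did what, and the build, is not given in the sources used here. Columns were matched to samples by name.

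Estimated counts were rounded. Genes passing filterByExpr (15536) were tested with edgeR 4.0.16 quasi-likelihood tests (glmQLFit, glmQLFTest) in R 4.3.3, with TMM factors, a mean per group, 30 libraries in 1 fit and Benjamini-Hochberg adjustment over all tested genes. Standard errors were taken as the log2 fold change divided by the root of the F statistic. The 95% intervals are the log2 fold change plus or minus 1.96 standard errors, somewhat narrower than the edgeR tests imply. For sid-5 in P0 hrde-1, hypoxia against normoxia, the interval was -1.24 to -0.02, with an unadjusted edgeR p of 0.056. Comparisons with F2 WT normoxia used a second fit of 32 libraries and 15545 genes, with the remainder in that group (the column times 3, less the libraries of F1 and F3). DESeq2 1.42.0, other filters and other library sets were alternatives. Where 1 of the 2 libraries of a group was left out, the other was assumed to vary like the other groups. The test was also run on simulated counts, with the same spread for all genes and few changed genes. That setting differs from these data, so no conclusion on the test is drawn from it. Coordinates and exon lengths, 1-based, came from the WBcel235 annotation of Ensembl, which held 99.8% of the table's IDs.

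The members, the list of 33 small RNA genes and the marker lists were chosen with earlier results of these data known. Named genes were the 8 members, hrde-1, up to 3 called list genes per direction and comparison by smallest p, and the 3 genes most like each member.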

Additional observations from a re-analysis of the deposited data

How the results depend on the processing

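Counts of calls are given over the 8 genes and the comparisons of a kind. Hypoxia against normoxia in WT gave 6 calls, and 1 to 6 when 1 library was left out, the lowest without the second P0 WT normoxia library. In hrde-1 it gave 0 calls, 1 with DESeq2's Wald test, 4 with each pair of groups fitted alone and 0 to 2 with 1 library left out. hrde-1 against WT gave 15 calls in normoxia, 10 to 19 under the other settings and 13 with a mean over 4 generations that includes the remainder, a setting chosen after seeing the data. In hypoxia it gave 4 calls, 11 with groups fitted alone and 1 to 4 with 1 library left out. The interaction gave 0 calls, 2 with groups fitted alone and 0 to 2 with 1 library left out. P0 against later generations gave 5 calls, and 2 to 5 with 1 library left out. Comparisons with F2 WT normoxia gave 0 calls, 1 with the columns as deposited (rde-11) and 0 to 1 with 1 library left out. The fits of single pairs held fewer libraries, and the cause of these shifts was not tested. No called value changed sign under any setting run. Of 30 calls, 6 held under every setting run.

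No pairing by replicate number was seen over the groups as a whole. Differences between the replicates of 105 pairs of groups had correlations of -0.56 to 0.44 with a median of -0.003. Of these pairs 16 had an r over 0.1 and 12 an r under -0.1. Pairing within single generations or treatments was not tested. With the replicate block the counts were 6, 0, 17, 4, 0, 6 and 0 in the order above.

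Over all genes, counts moved over 1.5 times in 22 of 26 comparisons, mostly with groups fitted alone. For hypoxia against normoxia that fit called 3798 genes against 2149 in F1 WT, 2255 against 1026 in F3 WT, 0 against 907 in P0 hrde-1 and 5020 against 1299 in F1 hrde-1. For hrde-1 against WT in normoxia it called 84 against 3506 in P0, 35 against 1382 in F3 and 101 against 701 in F2. In hypoxia it called 1289 against 332 in P0, 1088 against 308 in F1, 3259 against 999 in F2, 3041 against 1680 in F3 and 6530 against 4029 in the mean. For the interaction it called 0 against 54 in P0, 6054 against 1970 in F1 and 0 against 102 in F3, where DESeq2 called 812, 3100 and 550. For P0 against later generations it called 3577 against 1413 in WT hypoxia, 39 against 3785 in hrde-1 normoxia and 4742 against 2863 in hrde-1 hypoxia. DESeq2 called 11 genes against 2 in F3 hrde-1. The columns as deposited gave 1239 genes for WT hypoxia in F2 against 0 with the remainder. With 2 libraries a group, the standard errors of 0.11 to 0.32 of single comparisons limit what could be seen, most for sid-5, which had as few as 42 counts.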
